A study of Saccharomyces cerevisiae with 5 samples.

Results

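The septins of budding yeast and the protein kinases that work on the septin ring were followed at the level of mRNA in a strain without chitin synthase II (chs2Δ) and in its wild-type parent. They comprised the mitotic septin genes CDC3, CDC10, CDC11, CDC12 and SHS1, the sporulation septin genes SPR3 and SPR28, and the kinase genes GIN4, ELM1 and HSL1. The 10 genes were picked by name, as known septins and ring kinases, out of 6256 genes on the array. The selection had no threshold on a measured value, but the genes and the gene lists below were chosen by someone who knew earlier results of these data. Each was read by 1 probe, printed at 1 or 2 spots.

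Septins are GTP-binding proteins that join into rods and then into filaments. In budding yeast a rod has a pair of Cdc10 subunits at its centre, flanked by Cdc3 and then Cdc12, with Cdc11 or Shs1 at either end. The filaments form a ring at the bud neck that serves as a scaffold for the morphogenesis checkpoint and for cytokinesis, and Chs2, the enzyme that lays down the primary septum, acts at this site. Spr3 and Spr28 are made during sporulation, when septins line the prospore membrane.

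The study compared the haploid MAT α strain YFR23, in which CHS2 is replaced by a KANMX4 cassette, with the parental strain MGD353-46D. Both strains carry the parental trp1, ura3, leu2 and his3 markers, and both were grown overnight at 26°C in complete synthetic medium with glucose or in histidine dropout medium. The sources used here do not say which medium the cultures of each array had grown in. Each of the 5 two-colour Agilent oligonucleotide arrays held RNA of both strains, with chs2Δ in Cy5 on replicates 1, 3 and 5 and in Cy3 on replicates 2 and 4. The labels conflict on the mutant strain. The source names of the arrays give YFR23, while the array titles name YJR6, the strain with MYO1 deleted. The source names were followed here. Replicate 1 had a slide to itself, replicates 2 and 3 shared the second slide and replicates 4 and 5 the third. The arrays were taken as 5 pairs of separate cultures, as most of the labels state, although 1 passage of the series description speaks of triplicate cultures. The deletion was studied in a single strain, and a change that arose in that strain apart from CHS2 cannot be told apart from the deletion. RNA came from whole cultures, in which less mRNA per cell and fewer cells of a cell cycle stage that makes the mRNA cannot be told apart.

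All ratios below are log2 values of chs2Δ over wild type from background-corrected, loess-normalized intensities. A positive value stands for more mRNA in chs2Δ relative to genes of similar intensity on that array. Errors of a mean ratio are SE from limma over the 5 arrays, and a gene was called higher or lower at an adjusted p (Benjamini-Hochberg over 6241 genes tested) below 0.05. At this threshold 71.6% of all genes tested were called, 35.7% higher and 36.0% lower, so a call by itself sets no gene apart. The chs2Δ channel was the dimmer one on every array. Its median net of background ran from 77.5 to 197 intensity units, against 213 to 431 in the wild-type channel. Loess and centring on the median both remove a constant difference between channels, and only loess also follows a difference that varies with intensity. The median log2 ratio of all genes was -0.01 with loess and 2.9e-04 under median centring. Where each array was only centred on its median, without loess, several ratios of the septin genes shifted. In that setting 83.1% of all genes were called, 41.6% higher and 41.5% lower. CHS2 itself was at -0.81 (SE 0.17, adjusted p = 0.00249 from limma) and ranged from -1.63 to -0.35 over the arrays, and its chs2Δ signal was above background on 4 arrays. MYO1, whose deletion strain YJR6 is named in the array titles, was at -0.31 (SE 0.06, adjusted p = 0.00130). Under median centring CHS2 was at -1.21 and MYO1 at -0.49. The sources used here do not place the CHS2 probe inside or outside the deletion, so the low CHS2 value is only a limited check of the labels.

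The septin and ring kinase genes did not share a direction. Of the 10 genes, 5 were called higher in chs2Δ (CDC3, SHS1, SPR28, ELM1 and HSL1), 3 lower (CDC10, CDC12 and GIN4) and 2 were not called (CDC11 and SPR3), so that 8 of 10 were called against the 71.6% of all genes. Under median centring without loess the split was 2 higher (SPR3 and SPR28) and 5 lower (CDC3, CDC10, CDC11, CDC12 and GIN4). That setting called 41.6% of all genes higher and 41.5% lower. The median log2 ratio of the 10 genes was 0.19, against -0.01 over all genes, and it lay between SPR3 and SPR28, which were not read above background in chs2Δ. It was 0.12 over the 8 genes read in both strains, 0.07 without background correction and -0.05 under median centring. The directions of CDC10, CDC12 and GIN4 and their calls held under all 18 alternative settings tried, whereas the rise of CDC3 turned to a fall under median centring and those of SHS1, ELM1 and HSL1 were not called there.

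**Figure D1:**
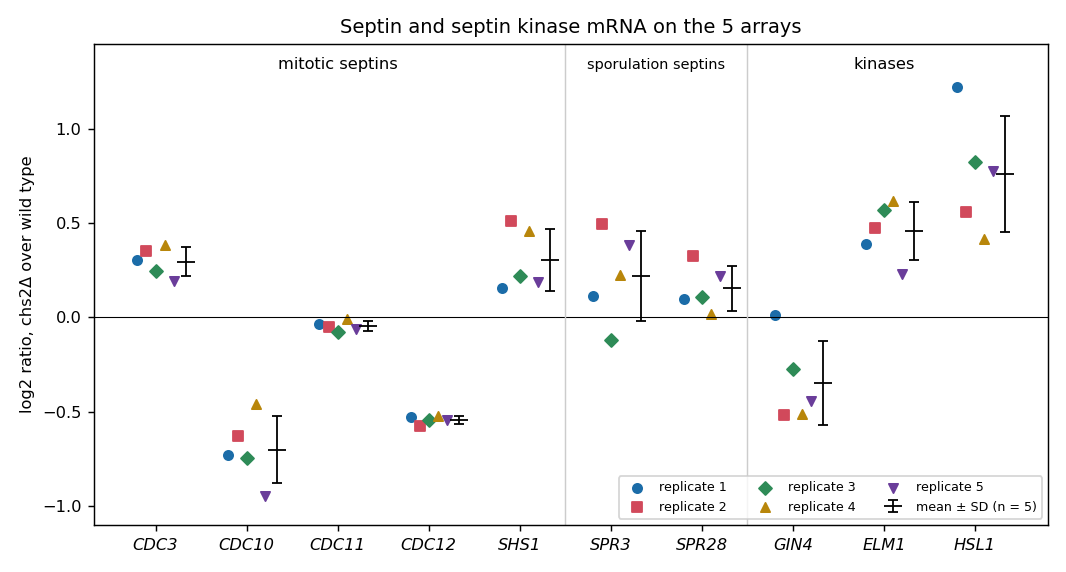
Log2 ratio of chs2Δ over wild type (y axis) of the septin and ring kinase genes (x axis). Each symbol is 1 of the 5 arrays, and the bar to the right of each gene is the mean ± SD over 5 arrays. CDC10 and CDC12 lay below 0 on every array and ELM1 and HSL1 above 0 on every array, while SPR3 lay on both sides of 0. Under median centring without loess CDC3 had a mean below 0.

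Signals in the scanner files showed which of these genes could be read in both strains. The mitotic septins and the 3 kinases were above local background in both strains on all 5 arrays, and no spot of the 10 genes was saturated or marked as poor. For CDC11 the lowest, median and highest wild-type signal over background were 1357, 2870 and 3700 intensity units, and the chs2Δ signal was 442, 647 and 1143 units. For SHS1 they were 189, 319 and 399 units in the wild type and 88.1, 99.1 and 226 units in chs2Δ, with ranges that overlapped. Signals of different probes are not on a common scale and were not set against each other.

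Before normalization, the chs2Δ and wild-type signals of CDC3, CDC10, CDC11, CDC12, GIN4 and ELM1 did not overlap over the arrays, chs2Δ being the lower, as was the chs2Δ channel as a whole. The share of all genes with such a gap was not counted, so the gap sets none of these genes apart. These raw ranges also leave out the pairing of strains within an array. For CDC10 the raw signals were 158, 165 and 376 units in chs2Δ against 925, 1404 and 1628 units in the wild type. For CDC12 they were 130, 142 and 325 units against 612, 1080 and 1201 units. The raw signals of CDC3 were 146, 177 and 296 units in chs2Δ against 363, 526 and 842 units in the wild type. Those of the kinase genes were also apart for GIN4, at 59.2, 83.2 and 171 units against 250.1, 438 and 545 units, and just apart for ELM1, at 132, 153 and 284 units against 290, 440 and 551 units. For HSL1, the kinase gene with the highest ratio, they were 178, 250 and 402 units in chs2Δ against 371, 598 and 837 units in the wild type, with ranges that overlapped.

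**Figure D2:**
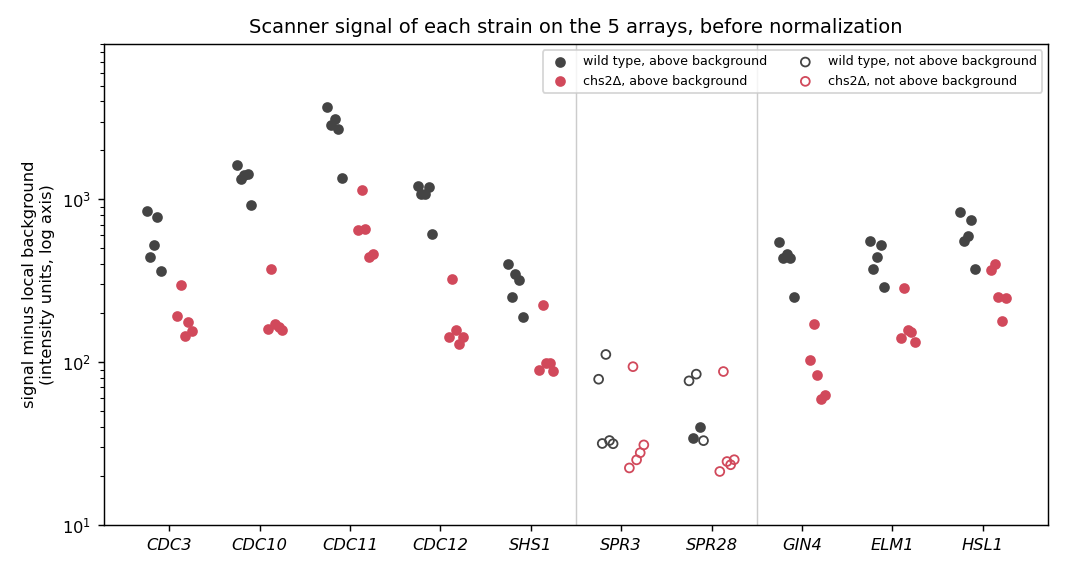
Scanner signal minus local background (y axis, intensity units, log axis) of the septin and ring kinase genes (x axis) before normalization, with 1 point per array and strain. Filled points were above background by 2 background SD and open points were not; SPR3 had no filled point in either strain and SPR28 had 2, both in the wild type.

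CDC10, which encodes the central subunit of the septin rod, had the lowest ratio of the 10 genes. Its log2 ratios on replicates 1 to 5 were -0.73, -0.63, -0.75, -0.46 and -0.94, so every array was below 0 and the spread between arrays (SD 0.18) was much smaller than the mean. The mean of -0.70 (SE 0.07, adjusted p = 4.7e-05 from limma) corresponds to 0.615 of the wild-type level. The means on the 3 slides were -0.73, -0.69 and -0.70, and the alternative settings gave -1.31 to -0.46. The slides that held more than 1 array average over both dye orders. The mean of CDC10 was -0.81 on the arrays with chs2Δ in Cy5 and -0.54 on those with chs2Δ in Cy3. Its dye term had an unadjusted p of 0.0486 and an adjusted p of 0.239 in limma.

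CDC12, whose product links Cdc3 to the end subunit, was the other mitotic septin gene called lower. Its log2 ratios were -0.53, -0.58, -0.54, -0.52 and -0.54, with a mean of -0.54 (SE 0.05, adjusted p = 1.6e-05 from limma), or 0.686 of the wild-type level. Under median centring the ratio was -1.09 (adjusted p = 8.0e-07). The SD of 0.02 between arrays was that of a mean of 2 spots that varied in opposite ways. At the first spot the ratios were -0.66, -0.54, -0.66, -0.43 and -0.65, nearest 0 on the arrays with chs2Δ in Cy3. At the second spot they were -0.40, -0.62, -0.42, -0.62 and -0.43, farthest from 0 on those same arrays. Both spots were below 0 on every array.

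CDC3, the neighbour of Cdc10 in the rod, had a small positive ratio. Its values of 0.30, 0.35, 0.24, 0.39 and 0.19 were above 0 on every array, and the mean of 0.30 (SE 0.05, adjusted p = 0.00108 from limma) is a 1.23-fold higher level. All values at its 2 spots were above 0, but the spots differed by up to 0.37 on an array. At the first spot the ratios were 0.12, 0.39, 0.14, 0.49 and 0.10, highest on the arrays with chs2Δ in Cy3. At the second spot they were 0.49, 0.32, 0.35, 0.28 and 0.28. The slide means of 0.30, 0.30 and 0.29 average over these spots and are closer together than the spots themselves. This direction depended on the loess step, since median centring gave -0.18 (adjusted p = 0.0349), and on slide 3 alone the ratio of 0.29 had an adjusted p of 0.0681.

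SHS1, the gene of the alternative end subunit, had ratios of 0.16, 0.51, 0.22, 0.46 and 0.19. The mean was 0.31 (SE 0.07, adjusted p = 0.00415 from limma), a 1.24-fold higher level, and under median centring it was 0.13 (adjusted p = 0.139). The highest values were those of replicates 2 and 4, the arrays with chs2Δ in Cy3, where the mean was 0.48 against 0.19 on the arrays with chs2Δ in Cy5. The dye term of this gene had an unadjusted p of 0.0118 and an adjusted p of 0.158 in limma. With the dye term in the fit the ratio of SHS1 was 0.34 (adjusted p = 3.0e-04).

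CDC11, the gene of the usual end subunit, stayed close to 0. Its ratios were -0.04, -0.05, -0.08, -0.01 and -0.06, below 0 on every array, with a mean of -0.05 (SE 0.05, adjusted p = 0.394 from limma). Under median centring the ratio was -0.76 (adjusted p = 8.3e-06), so CDC11 moved more between these settings than CDC3, CDC10 or CDC12.

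The order among the rod subunits was steadier than their distance from 0. CDC3 lay above CDC10 on 5 of 5 arrays, by a mean log2 difference of 1.00 (SD 0.11). CDC3 lay above CDC12 by 0.84 and above CDC11 by 0.34, also on 5 of 5 arrays in each case. CDC11 in turn lay above CDC12 by 0.50 (SD 0.03) and above CDC10 by 0.65 on every array. Each of these orders was the same on all 5 arrays without background correction, with an offset of 0 and under median centring. Scaling between arrays multiplies all ratios of an array by the same factor, so it could not change an order and is no check of it. Across those settings the difference of CDC3 and CDC10 ran from 0.70 to 1.18 and that of CDC11 and CDC12 from 0.29 to 0.63. The neighbours at either end of the order were not separated in this way. CDC10 was lower than CDC12 on 4 of 5 arrays (mean difference -0.16), and CDC3 was above SHS1 on 3 arrays and below it on 2 (mean difference -0.01), whereas under median centring CDC3 was below SHS1 on 5 of 5 arrays (mean difference -0.30, SD 0.13). These orders are descriptions, since an exact sign-flip test over 5 arrays cannot give a two-sided p below 0.0625.

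The mRNAs of the 3 ring kinases also did not share a direction. HSL1, which encodes the checkpoint kinase that brings about the degradation of the Cdc28 inhibitor Swe1, had the highest ratio of the 10 genes, with values of 1.22, 0.56, 0.83, 0.42 and 0.77. All arrays were above 0, and the mean of 0.76 (SE 0.11, adjusted p = 2.9e-04 from limma) is a 1.69-fold higher level. Of all genes tested, 76.8% had a smaller absolute log2 ratio. Both spots of HSL1 were above 0 on every array and differed by at most 0.24. The ratio was 0.94 on the arrays with chs2Δ in Cy5 against 0.49 on those with chs2Δ in Cy3 (dye term, unadjusted p = 0.0209, adjusted p = 0.183), and it was higher on slide 1 (1.22) than on slides 2 and 3 (0.69 and 0.60). With the dye term in the fit HSL1 was at 0.72 (adjusted p = 1.0e-04), and under median centring at 0.22 (adjusted p = 0.0860).

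ELM1, whose product acts upstream of Gin4 and Hsl1, had ratios of 0.39, 0.48, 0.57, 0.62 and 0.23, all above 0. The mean of 0.46 (SE 0.07, adjusted p = 3.7e-04 from limma) is a 1.37-fold higher level, and median centring reduced it to 0.07 (adjusted p = 0.354).

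GIN4, which encodes the kinase that phosphorylates Shs1 and helps to organize the ring, was the kinase gene called lower. Its ratios were 0.01, -0.52, -0.27, -0.51 and -0.44, so replicate 1 was at 0 while the remaining arrays were below it. The mean was -0.35 (SE 0.08, adjusted p = 0.00594 from limma), 0.786 of the wild-type level, without replicate 1 it was -0.44, and under median centring -0.57 (adjusted p = 1.3e-04). The slide means were 0.01, -0.40 and -0.48. The 2 spots of GIN4 differed by up to 0.54 on an array.

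GIN4 was below HSL1 on 5 of 5 arrays, by 1.11 log2 on average (SD 0.12), and below ELM1 on 5 of 5 arrays, by 0.80. Both orders held on all 5 arrays under median centring, at 0.79 and 0.64, and also without background correction and with an offset of 0. Thus GIN4 lay below HSL1 and ELM1 under each of these settings, though the distance varied with the setting. HSL1 and ELM1 were called higher with loess but not under median centring. ELM1 was lower than HSL1 on 4 of 5 arrays, by 0.30, and these were not separated beyond their spread.

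**Figure D3:**
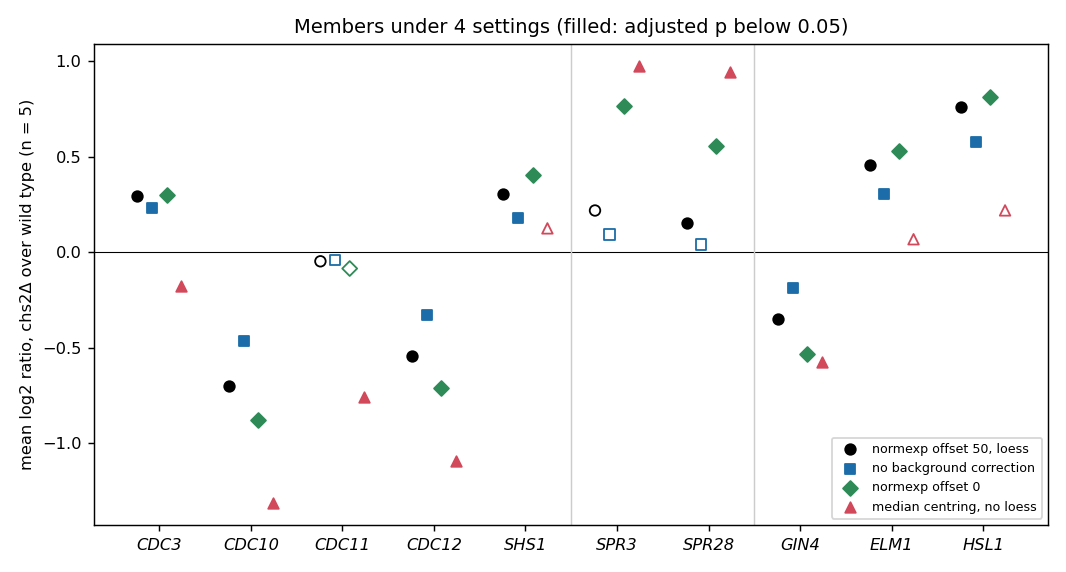
Mean log2 ratio over 5 arrays (y axis) of the septin and ring kinase genes (x axis) under 4 combinations of background correction and normalization, with filled symbols for an adjusted p below 0.05 in limma. CDC10, CDC12 and GIN4 were below 0 and called in all 4, CDC3 turned from above to below 0 under median centring, and SPR3 and SPR28 moved over a wide range.

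The sporulation septins could not be compared with the mitotic ones as expressed genes, because neither was read above background in chs2Δ. SPR3 had no signal above background in either strain on any array, at 22.4, 27.8 and 93.8 units in chs2Δ and 31.5, 32.99 and 111 units in the wild type. SPR28 was above background on 0 arrays in chs2Δ and on 2 arrays in the wild type (replicates 2 and 4), at 21.3, 24.5 and 87.5 units against 32.9, 40.0 and 84.4 units. The highest chs2Δ values of both genes were those of replicate 2, with chs2Δ in Cy3, and overlapped the wild-type range. Ratios of signals read in both strains were therefore available for the mitotic septins and the kinases only.

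For SPR3 the ratios formed from these signals were 0.11, 0.50, -0.12, 0.23 and 0.38, with a mean of 0.22 (SE 0.09, adjusted p = 0.0546 from limma) and no call. SPR3 was called higher under 5 of 17 alternative settings, with an adjusted p of 0.0300 with the dye term, 0.0359 with slide as a random block, 0.0136 with an offset of 0, 3.6e-05 under median centring and 0.0140 without replicate 3. For SPR28 they were 0.10, 0.33, 0.11, 0.02 and 0.22, with a mean of 0.15 (SE 0.06, adjusted p = 0.0465 from limma). SPR28 passed the threshold, yet no fold change is given because its chs2Δ signal was not above background on any array. The call was lost under 10 of 17 alternative settings, with an adjusted p of 0.0551 from the deposited ratios and 0.205 without background correction. Its 2 spots differed by up to 0.64 on an array.

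As values only, the mean of the 2 sporulation septins exceeded the mean of the 5 mitotic septins on every array, by 0.27, 0.49, 0.17, 0.15 and 0.53 on replicates 1 to 5 (mean 0.32, SD 0.18, n = 5). The difference was 0.15 without background correction, 0.86 with a normexp offset of 0 and 1.60 under median centring, and no test was made of it. With loess, the distance between the highest and the lowest mitotic septin on each array exceeded the distance between the group means. On replicate 5, for example, CDC3 was at 0.19 and CDC10 at -0.94. Under median centring this did not hold for the means over arrays. The lowest mitotic septin, CDC10, minus the highest, SHS1, was then -1.44, a smaller distance than the 1.60 between the groups.

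Few genes of the wider sporulation programme were read above background in chs2Δ on every array. Haploid cells growing in glucose do not normally enter meiosis, and of 22 other sporulation genes only 3 (13.6%) had a chs2Δ signal above background on all 5 arrays, against 73.6% of all genes. For 11 of them it was above background on no array. In the wild type, 8 of the 22 (36.4%) were above background on all arrays, against 87.3% of all genes, and 2 of the 22 were above background on no array. By the limma fit 4 of the 22 were called higher, 3 lower and 15 not called, with a median of -0.03. The same fit called 35.7% of all genes higher and 36.0% lower. Median centring called 21 of the 22 higher and 1 lower, beside 41.6% and 41.5% of all genes.

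NDT80, the transcription factor gene that switches on middle sporulation genes, had a ratio of 0.12 log2 (SE 0.05, adjusted p = 0.0782 from limma), with signal above background in both strains on every array. GIP1, which encodes the phosphatase subunit needed for septins to form at the prospore membrane, was below that limit on all arrays in either strain. Its log2 ratio was -0.06 (adjusted p = 0.350), and 0.84 under median centring. The sporulation genes with the highest ratios were SPS100, a spore wall gene, at 1.17 (SE 0.07, adjusted p = 7.4e-06, 4 usable arrays, 2.25-fold), and MPC54, a spindle pole plaque gene, at 0.41 (SE 0.05, adjusted p = 1.5e-04). The lowest were SPR6 at -0.38 (adjusted p = 5.0e-04) and SSP2 at -0.34 (adjusted p = 0.00182). SSP2 had no chs2Δ signal above background, and it turned to 0.36 under median centring. Under that setting NDT80 was at 0.39 (adjusted p = 4.4e-04) and MPC54 at 0.86.

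Genes that guide assembly of the septin ring were compared with the septins themselves. Of 15 such regulators, 5 (33.3%) were called higher and 8 (53.3%) lower, with 2 not called and a median log2 ratio of -0.32. The shares of all genes were 35.7% and 36.0%. Median centring gave 7 (46.7%) higher and 8 (53.3%) lower, beside 41.6% and 41.5% of all genes. BEM3, a GTPase-activating protein of Cdc42, had the highest ratio at 1.15 (SE 0.06, adjusted p = 1.1e-06 from limma), a 2.22-fold higher level. GIC2, an effector of Cdc42, was at 1.11 (SE 0.14, adjusted p = 1.6e-04, 2.15-fold). CDC42 itself, the GTPase that directs septins to the bud site, was lower at -0.53 (SE 0.10, adjusted p = 0.00183). CLA4, the Cdc42-activated kinase that acts on septins during ring assembly, was the lowest at -0.77 (SE 0.07, adjusted p = 1.5e-05), or 0.586 of the wild-type level. The direction of each of these 4 genes was the same under every alternative setting tried. Under median centring the ratios were 0.82 for BEM3, 0.43 for GIC2 (adjusted p = 0.0161), -1.12 for CDC42 and -1.28 for CLA4.

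Of 7 genes whose products are held at the neck by septins, 1 was called higher, 3 lower and 3 not called, with a median of -0.17. Among all genes 35.7% were called higher and 36.0% lower. Under median centring, and with slide as a random block, 5 of the 7 were called lower, beside 41.5% and 36.8% of all genes. On slide 3 alone 1 of the 7 was called lower, beside 25.3% of all genes. NIS1, a bud neck protein gene, was the one called higher, at 0.59 (SE 0.09, adjusted p = 5.0e-04 from limma), and under median centring it was at 0.05 (adjusted p = 0.666). BUD4, the anillin-like landmark for axial budding, was at -0.44 (SE 0.06, adjusted p = 1.5e-04). AIM44, which encodes a neck protein that acts in cytokinesis, was at -0.26 (SE 0.06, adjusted p = 0.00298). Under median centring BUD4 was at -0.89 and AIM44 at -0.72.

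**Figure D4:**
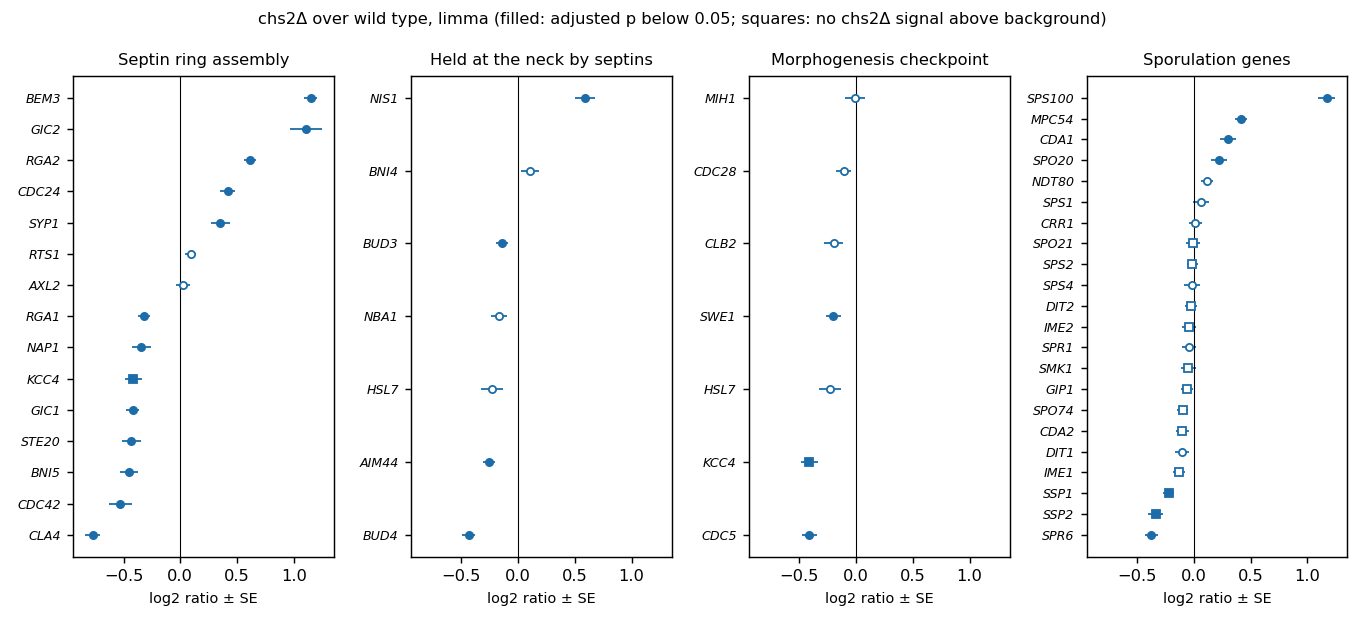
Mean log2 ratio of chs2Δ over wild type (x axis, ± SE from limma) of the genes (y axis) of 4 lists around the septins. Filled symbols mark an adjusted p below 0.05 and squares mark genes whose chs2Δ signal was above background on 0 arrays. BEM3, GIC2 and SPS100 lay above 1, CLA4 was the lowest, and most sporulation genes lay near 0, where median centring placed 21 of 22 of them higher.

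The morphogenesis checkpoint, which delays mitosis when the bud or its septin ring is not in order, was examined because Hsl1 is part of it. Of 7 checkpoint genes other than HSL1, 0 were called higher, 3 lower and 4 not called by limma, with a median of -0.20. Shares over all genes were 35.7% higher and 36.0% lower. All 7 means were below 0, so 0 of the 7 were higher at an unadjusted p below 0.05 either. Median centring called 1 of the 7 higher and 5 lower, beside 41.6% and 41.5% of all genes. With the dye term and with slide as a random block 5 were also called lower, beside 37.7% and 36.8% of all genes. HSL1, called higher at 0.76, was left out of these counts. HSL7 was also counted with the neck genes and KCC4 with the ring regulators. SWE1, the Cdc28-inhibiting kinase that Hsl1 acts against, was at -0.20 (SE 0.07, adjusted p = 0.0266), and this call was lost without any single one of replicates 2, 3, 4 or 5, with adjusted p of 0.0572 to 0.0956. HSL7, the adaptor that joins Swe1 to Hsl1 at the neck, was at -0.23 (SE 0.10, adjusted p = 0.0640). Its ratios were 0.07 and 0.04 on the arrays with chs2Δ in Cy3 and -0.51 to -0.31 on those with chs2Δ in Cy5. HSL7 was called lower with the dye term (-0.18, adjusted p = 0.0122) and with slide as a random block (-0.22, adjusted p = 0.0497). CDC5, the polo kinase that also targets Swe1, was at -0.41 (SE 0.07, adjusted p = 6.3e-04), and under median centring at -0.71.

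KCC4, the septin-associated kinase gene related to GIN4 and HSL1, was called lower at -0.41 (SE 0.08, adjusted p = 0.00126 from limma). It was above background on 0 arrays in chs2Δ and on 4 in the wild type. With the lowest signal above background on each array as floor, the means over 5 arrays after loess gave a bound of 1.05-fold lower. These means include replicate 3, where the wild type was not above background. Under median centring the KCC4 ratio turned to 0.24 and was called higher (adjusted p = 0.0490 from limma). The bound therefore holds for the loess setting only, and no least fall is given.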

How the data were processed

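RNA of both strains was measured on 5 two-colour arrays. The authors deposited ImaGene scanner files (version 6.0.0 per the file headers) with spot intensity and local background, not normalized, and log2 Cy5/Cy3 ratios that they had background-corrected and lowess-normalized with limma. The latter served as an alternative only.

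In R 4.3.3 with limma 3.58.1, intensities were corrected with normexp (offset 50) and normalized by loess (span 0.3) within arrays, with control spots given no weight and poor spots (115 to 261 per array) left out. Gene values were means over spots, expressed as chs2Δ over wild type, and were fitted with lmFit and eBayes over 5 arrays. Of 6256 genes, 15 with under 2 usable arrays were not tested. Above background means a signal over the local background median plus 2 SD. The bound on a fold took the lowest signal above background on each array as floor.

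The genes and lists were chosen with earlier results of these data known. Named were all septin and ring kinase genes, the extreme called genes of each list and genes a result turned on. Names of 5756 genes were matched to RefSeq and 500 kept from the array. The procedure was tested on simulated data in which few genes changed and the channels differed by a constant factor. That test could not check the choice between loess and median centring, because it held no channel difference that varied with intensity. Alternatives covered background, offset, centring, scaling, dye, slide, flags, dim genes, deposited ratios, thresholds and left-out arrays. The number of arrays limits the precision.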

Additional observations from a re-analysis of the deposited data

Results flagged for a closer look

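NDT80, the activator of middle sporulation genes, had a log2 ratio of 0.25 on replicate 4, while the other arrays lay between 0.05 and 0.10. The gap was 0.742 of the whole range over the 5 arrays. Of 30 values examined in this way, 1 stood apart, and chance gives a share of 0.05 on average.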

How the results depend on the processing

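Median centring without loess changed most. It called 2 of the septin and kinase genes higher and 5 lower, and 21 sporulation genes higher and 1 lower. Of all genes it called 41.6% higher and 41.5% lower. The sporulation septins then exceeded the mitotic septins by 1.60, and by 0.86 with a normexp offset of 0. CDC3 turned to -0.18, KCC4 to 0.24, SSP2 to 0.36 and GIP1 to 0.84; the cause was not tested. With genes not above background in both strains on at least 3 arrays left out, 6 of the 22 sporulation genes were tested, and 2 were called higher and 1 lower. Of all genes tested there, 40.4% were called higher and 36.9% lower. On slide 3 alone, an alternative chosen after seeing the data, 3 septin and kinase genes and 2 sporulation genes were called higher. There 27.7% of all genes were called higher. CDC10, CDC12 and GIN4 kept direction and call in 18 of 18 alternatives. Of the values for single genes, 475 kept their direction and side of the threshold, 23 lost the call, 14 gained it and 4 reversed. Leaving out 1 array moved no count by over 1.5 times, and of the septin and kinase genes SPR28 lost its call without replicate 1, 2, 3 or 5, while SPR3 gained one without replicate 3. A random slide block had a correlation of -0.13 and left 6 of these genes called higher and 3 lower. With that block 36.6% of all genes were called higher and 36.8% lower. Every ratio compared chs2Δ with wild type within an array, so the limma fits were already paired by array. No separate paired fit was added.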
